A study of Rattus norvegicus with 54 samples.

Results

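The 10 genes described here, Ttr, F5, Slc4a5, Kl, Kcne2, Enpp2, Aqp1, Folr1, Clic6 and Otx2, are used as markers of choroid plexus epithelium, and were read in bulk RNA-seq of the nucleus accumbens, a ventral striatal region, of Long Evans rats. They were chosen by symbol, and all 10 were found among the 45785 named genes of the deposited count table. The 54 libraries fall into 8 groups. At postnatal day 42 (P42) the groups were PAE-VEH males (n = 9) and FCL-VEH males (n = 9), and PAE-VEH females (n = 4) and FCL-VEH females (n = 7), where PAE is prenatal ethanol, FCL a free-choice liquid diet before birth and VEH water in adolescence. At postnatal day 90 (P90) they were PAE-AAE males (n = 6) and FCL-VEH males (n = 6), and PAE-AAE females (n = 5) and FCL-VEH females (n = 8), where AAE is alcohol in adolescence. The controls of both ages therefore had the liquid diet and water, and the exposed adults had both ethanol periods, which cannot be told apart at P90. The P42 libraries are labelled as taken 24 hours after the last exposure, and no such time is given for the P90 libraries. The time since the last exposure is therefore not separated from age when P90 and P42 are compared. The labels give neither animals nor litters, so that p-values measure the spread between these libraries.

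The choroid plexus is a folded epithelium inside the brain ventricles that secretes cerebrospinal fluid and exchanges hormones, vitamins and ions between blood and fluid. Its epithelium is continuous with the ciliated ependyma that lines the ventricle walls, and it is not a component of the accumbens itself, although the lateral ventricle runs close by. Of the 10 genes, Ttr encodes transthyretin, the thyroid hormone and retinol carrier that this epithelium secretes in large amounts, and F5 encodes coagulation factor V. Slc4a5 encodes a sodium bicarbonate cotransporter, Kcne2 a potassium channel subunit, Aqp1 a water channel and Clic6 a member of the chloride intracellular channel family. Kl encodes klotho, a co-receptor of fibroblast growth factor 23, Folr1 encodes a folate receptor, Enpp2 encodes autotaxin, which makes lysophosphatidic acid and is also made by oligodendrocytes, and Otx2 encodes a homeobox transcription factor.

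The libraries held between 58848145 and 103485677 counts in named genes (median 72196375), all under 1 batch date in the labels. The tissue markers were present in every group, with 12 spiny neuron markers summing to between 2481 and 9632 CPM per library, where CPM is a gene's counts per 1000000 counts of the library. The sex markers Xist and Kdm5d went against the label in 3 libraries. These are the libraries labelled PAE-VEH P42 male replicate 5, FCL-VEH P42 male replicate 8 and FCL-VEH P42 female replicate 5. The male libraries PAE-AAE P90 replicate 5 and FCL-VEH P90 replicate 6 carried Xist at 30.8 and 53.3 CPM beside the Y-linked Kdm5d. Replicate numbers follow the order of accession and only name a library. Levels are given below as CPM on library sizes scaled by the trimmed mean of M values.

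Ttr spanned the widest range of the 10 genes. It lies on chromosome 18 at chr18:12216684-12225972 on the plus strand of GRCr8, and the loci given below are on the same build. It ranged from 3.07 to 3760 CPM over the 54 libraries, a 1223-fold span, with a median of 119.6 CPM. Its share of a library's counts was 0.000298% at the lowest and 0.362% at the highest. Ttr was above 1000 CPM in 9 libraries and below 20 CPM in 7. The spread of Ttr within groups, as the SD of log2(CPM + 0.1) after subtracting group means, was 2.26, the 8th highest of 16334 genes with a mean of at least 1 CPM, against a median of 0.22 over those genes.

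The level of Ttr was as follows in each group, as the lowest, median and highest library where a group has over 5. In P42 males Ttr was at 43.0, 119.9 and 1217 CPM in PAE-VEH libraries, and at 3.07, 60.7 and 1626 CPM in FCL-VEH libraries. In P42 females Ttr was at 601.1, 171.4, 28.1 and 168.1 CPM in the PAE-VEH libraries, and at 15.6, 101.9 and 1326 CPM in FCL-VEH libraries. In each of these groups the highest library stood far above the median of its group, and the exposed and control libraries overlapped over most of their range. In P90 males Ttr was at 14.5, 40.2 and 1375 CPM in PAE-AAE libraries, and at 31.9, 916.2 and 3588 CPM in FCL-VEH libraries. In P90 females Ttr was at 73.1, 1265, 3760, 7.89 and 342.3 CPM in the PAE-AAE libraries, and at 72.2, 175.3 and 800.0 CPM in FCL-VEH libraries. By median, the groups from low to high were PAE-AAE P90 males, FCL-VEH P42 males, FCL-VEH P42 females, PAE-VEH P42 males, PAE-VEH P42 females, FCL-VEH P90 females, PAE-AAE P90 females and FCL-VEH P90 males. The ranges of all neighbours in that order overlapped.

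**Figure D1:**
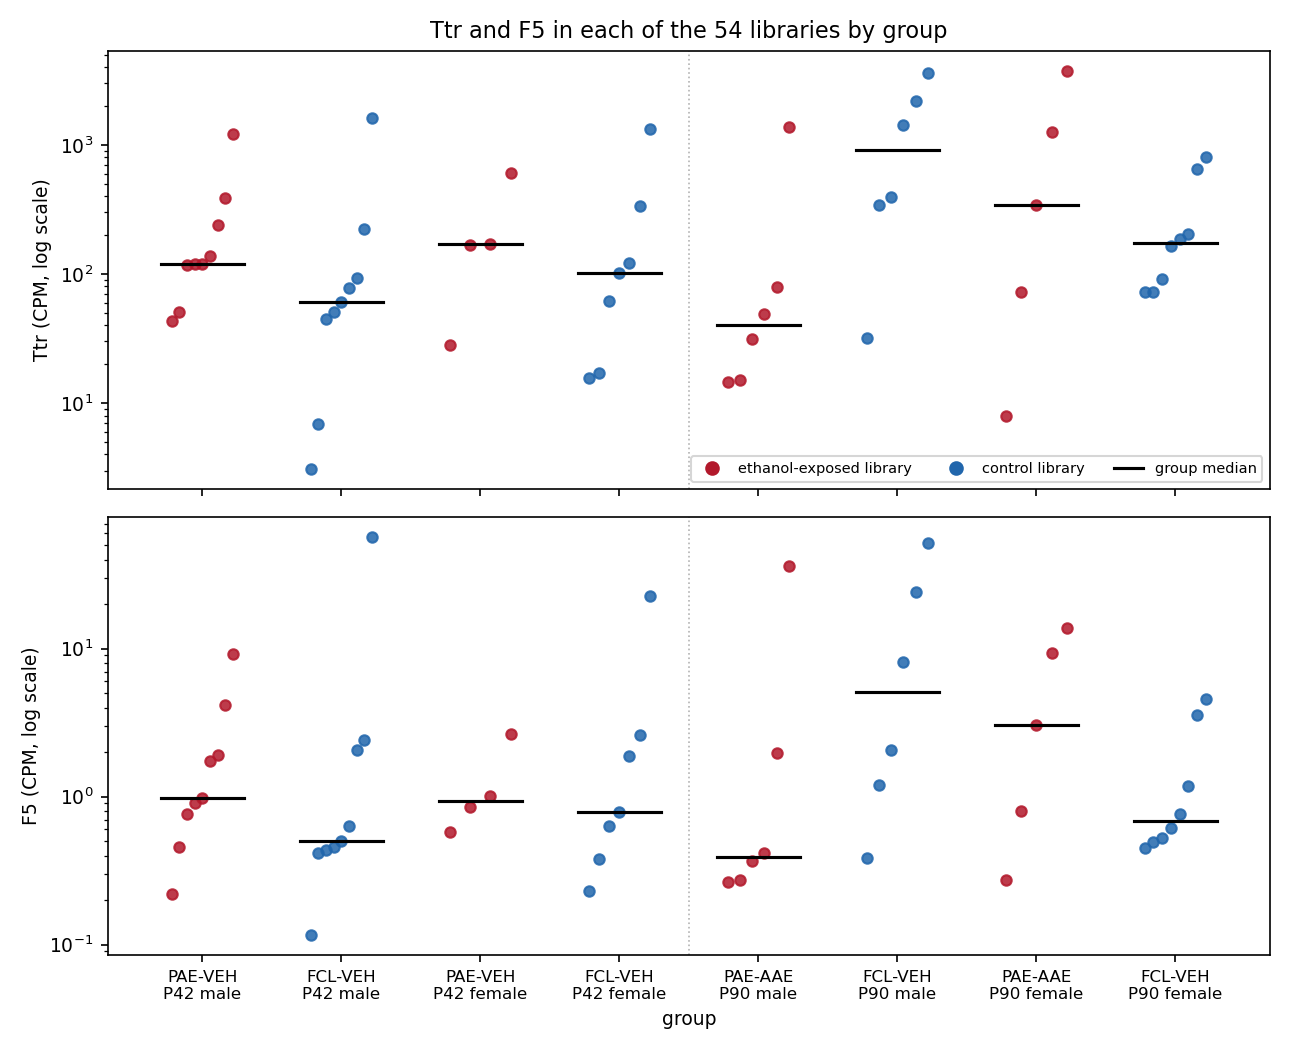
Level of Ttr (top) and F5 (bottom) in each of the 54 libraries, in CPM on a log axis, by group; points are libraries, bars are group medians, red marks ethanol-exposed and blue control libraries. Each group spans at least an order of magnitude of Ttr, and the highest library of Ttr is also the highest of F5 in 8 of 8 groups.

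Single libraries carried much of each group's Ttr. In PAE-AAE P90 males, replicate 6 held 87.9% of the summed Ttr CPM of the group, against 16.7% for an even split over the 6 libraries. In FCL-VEH P42 males, replicate 5 held 74.3%, against 11.1% for an even split over the 9. The lowest such share was 35.6%, in FCL-VEH P90 females. Over the 8 groups the median share of the highest library was 64.5% for Ttr, 59.1% for Slc4a5, 55.5% for F5 and 48.1% for Kl, and it was 28.0% for Enpp2 and 26.5% for Otx2.

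F5, on chromosome 13 at chr13:79046657-79116247 on the plus strand, followed Ttr most closely. It ranged from 0.116 to 57.2 CPM, with a median of 0.876 CPM and a lowest count of 9, so that its low values are imprecise. Its spread within groups was 2.02, the 14th highest of the 16334 genes. In P90 males F5 was at 0.265, 0.389 and 36.2 CPM in PAE-AAE libraries (lowest, median and highest), and at 0.387, 5.08 and 52.1 CPM in FCL-VEH libraries. In P90 females F5 was at 0.795, 9.39, 13.8, 0.275 and 3.05 CPM in the PAE-AAE libraries, and at 0.453, 0.688 and 4.59 CPM in FCL-VEH libraries. The 2 highest of these PAE-AAE female libraries were also the 2 highest of Ttr.

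Slc4a5, on chromosome 4 at chr4:117267803-117368024 on the plus strand, ranged from 0.529 to 40.5 CPM (spread 1.49, 56th of the 16334 genes). Kl, on chromosome 12 at chr12:5326003-5367016 on the plus strand, ranged from 2.54 to 58.8 CPM (spread 1.07), and Kcne2, on chromosome 11 at chr11:45003468-45015942 on the plus strand, from 1.03 to 16.4 CPM (spread 0.79). The library with the most Ttr in its group was also the highest in Kl, Kcne2 and Slc4a5 in 7 of 8 groups for each gene, in Enpp2 in 6, in Folr1, Aqp1 and Clic6 in 4, and in Otx2 in 3. All 9 libraries above 1000 CPM of Ttr had more F5, Slc4a5, Kl and Kcne2 than any of the other 45. The lowest of the 9 had 10.6 CPM of Slc4a5, against at most 6.69 CPM in the other 45, and the lowest of the 9 had 14.1 CPM of Kl, against at most 10.5 CPM in the other 45. For Folr1, Clic6, Aqp1, Otx2 and Enpp2 the 9 libraries overlapped with the others.

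Because Ttr, F5, Slc4a5 and Kl moved together over libraries, their promoter windows are shown, from 250 bases before to 50 after the start that RefSeq gives on GRCr8. Windows were held for 5 of the 10 genes, these and Aqp1. For Ttr, on the plus strand at chr18:12218508-12218807, and for Slc4a5, on the plus strand at chr4:117283044-117283343, the window lies inside the annotated span of the gene. The window of F5 is on the plus strand at chr13:79046407-79046706, and that of Kl on the plus strand at chr12:5325753-5326052. Capitals mark matches, on either strand, to GTTTAC (a forkhead core), CCAAT or GGGCGG (a GC box).
Ttr: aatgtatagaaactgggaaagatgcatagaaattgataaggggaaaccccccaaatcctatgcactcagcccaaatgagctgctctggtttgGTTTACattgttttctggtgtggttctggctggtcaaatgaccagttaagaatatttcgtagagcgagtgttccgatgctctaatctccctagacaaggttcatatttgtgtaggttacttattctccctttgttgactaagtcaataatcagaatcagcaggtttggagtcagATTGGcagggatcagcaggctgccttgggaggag
F5: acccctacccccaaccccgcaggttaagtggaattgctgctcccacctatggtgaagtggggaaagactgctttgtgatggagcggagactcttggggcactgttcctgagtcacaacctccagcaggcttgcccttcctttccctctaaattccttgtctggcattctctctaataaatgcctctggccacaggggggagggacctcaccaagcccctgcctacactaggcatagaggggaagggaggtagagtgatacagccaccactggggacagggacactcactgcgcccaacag
Slc4a5: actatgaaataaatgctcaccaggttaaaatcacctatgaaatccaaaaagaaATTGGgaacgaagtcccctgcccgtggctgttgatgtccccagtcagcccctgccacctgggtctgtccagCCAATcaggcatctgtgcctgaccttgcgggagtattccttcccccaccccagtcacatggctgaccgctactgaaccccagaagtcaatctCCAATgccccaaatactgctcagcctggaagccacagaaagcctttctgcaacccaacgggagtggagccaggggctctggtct
Kl: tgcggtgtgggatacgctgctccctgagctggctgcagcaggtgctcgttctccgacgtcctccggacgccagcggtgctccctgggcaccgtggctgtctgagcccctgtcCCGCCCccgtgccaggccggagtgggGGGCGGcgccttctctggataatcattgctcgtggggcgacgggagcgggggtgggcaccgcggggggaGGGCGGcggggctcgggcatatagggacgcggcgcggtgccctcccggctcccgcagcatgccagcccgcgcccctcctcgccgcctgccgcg

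None of the 5 motifs searched was present in all 4 windows. GTTTAC was present in the Ttr window, and in 8.11% of all 33469 RefSeq rat windows of this length. CCAAT was present in the Ttr window, and 3 times in that of Slc4a5, against 37.5% of all windows with at least 1 match. GGGCGG was present 3 times in the Kl window, against 33.1% of all windows. The TATA box, searched as the letters TATAAA and present in 14.2% of all windows, and the OTX site, searched as TAATCC and present in 7.17%, had no match in these 4 windows, and the F5 window had no match to any of the 5. No match overlapped another. The GC content was 43.7% for Ttr, 56.7% for F5, 54% for Slc4a5 and 75% for Kl, against a median of 51.7% over all windows.

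Compared per length, in the deposited FPKM, which divide the counts of a gene by its length and by library size, Ttr was the most abundant of the 10 by median. Its median level was 143.3 FPKM, that of Enpp2 was 41.1 FPKM and that of Folr1 was 3.38 FPKM. The other 7 had medians between 0.116 FPKM for F5 and 1.93 FPKM for Otx2. In the libraries with the most Ttr the order of the first 2 did not turn, with a highest level of 4500 FPKM for Ttr and of 172.7 FPKM for Enpp2. It turned where Ttr was lowest, at 3.69 FPKM, since Enpp2 was at 24.0 FPKM or more in every library.

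Over the 54 libraries the 9 other members all correlated with Ttr on the log2(CPM + 0.1) scale, to different degrees. Pearson's r with Ttr was 0.84 for F5 and 0.81 for Slc4a5 (permutation p = 1e-05 for each, the smallest that 100000 permutations can give). It was 0.73 for Kcne2 and 0.71 for Kl at the same p, 0.64 for Aqp1 (permutation p = 1e-05) and 0.61 for Enpp2 (permutation p = 2e-05). It was lower for Otx2 (0.41, permutation p = 0.00182), Clic6 (0.41, permutation p = 0.00226) and Folr1 (0.39, permutation p = 0.00308). Spearman's rho ran from 0.82 for F5 to 0.30 for Clic6 (permutation p = 0.0296). Adjusted by Benjamini-Hochberg over these 9 relations, the highest permutation p was 0.00308 for r and 0.0296 for rho. Without the 2 libraries farthest from the median of Ttr, r was 0.86 for F5, 0.82 for Slc4a5, 0.73 for Kl, 0.71 for Kcne2, 0.65 for Aqp1, 0.62 for Enpp2, 0.46 for Clic6, 0.44 for Otx2 and 0.38 for Folr1. After subtracting group means r was 0.86 for F5 and 0.35 for Otx2, the ends of the range, so the relations were present within groups.

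The members themselves fell into sets. Kl and Slc4a5 had r = 0.91, F5 and Slc4a5 0.92, Kl and Kcne2 0.88 and Kl and F5 0.88. Folr1 and Clic6 had r = 0.92, Clic6 and Otx2 0.86 and Folr1 and Otx2 0.79. Between the sets r was lower, for example 0.55 between Folr1 and Kl and 0.52 between Kl and Otx2. Kcne2 and Clic6 are 207.8 kb apart on chromosome 11, where Clic6 lies at chr11:45223715-45266261 on the plus strand, and had r = 0.63. These pairs are given as a description of 36 pairs.

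**Figure D2:**
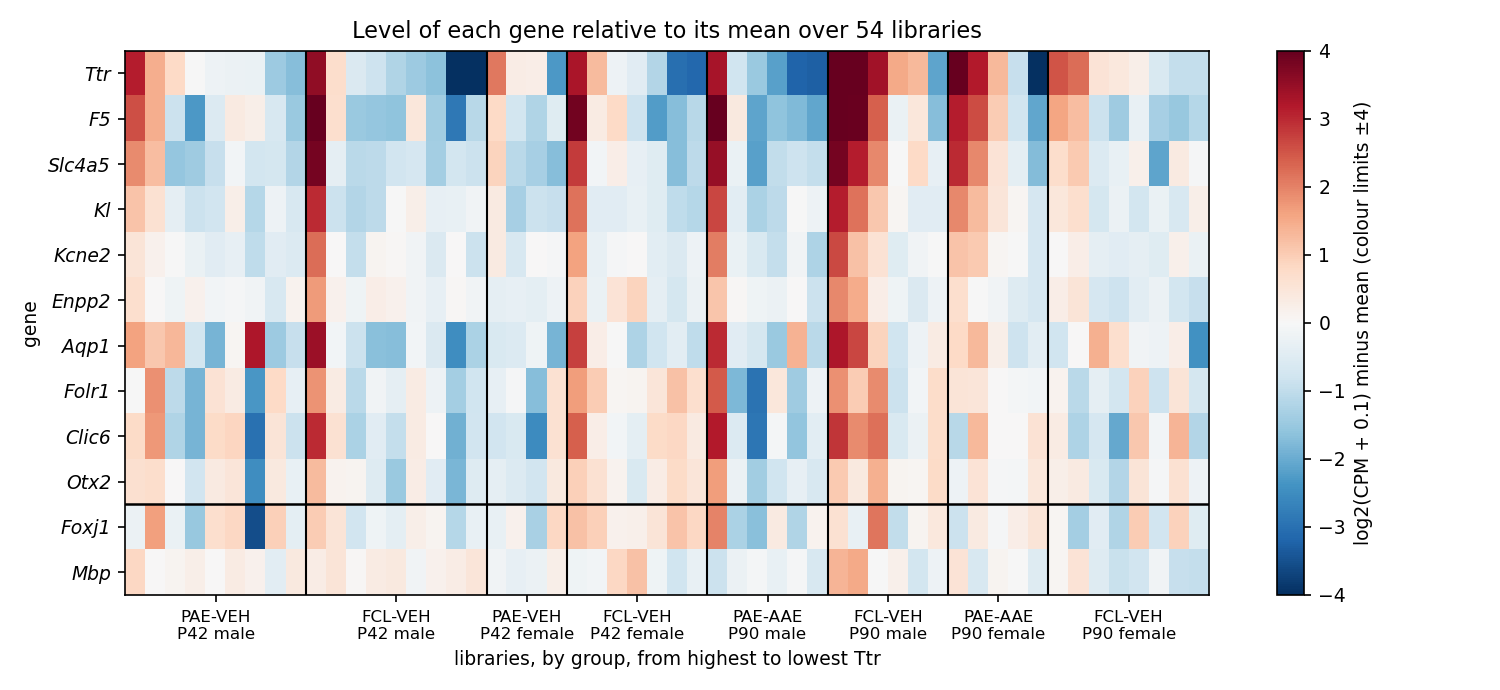
Log2(CPM + 0.1) of the 10 genes, and of Foxj1 (ependyma) and Mbp (myelin) below the line, minus the mean of each gene over the 54 libraries; columns are libraries by group, ordered from highest to lowest Ttr within a group. F5, Slc4a5, Kl and Kcne2 are high in the leftmost library of nearly every group, whereas Folr1, Clic6 and Otx2 vary with Foxj1.

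Folr1, Clic6 and Otx2 varied with the ependymal genes. Folr1 lies on chromosome 1 at chr1:165631462-165650430 on the minus strand, and Otx2 on chromosome 15 at chr15:24422876-24432709 on the minus strand. With Foxj1, the transcription factor of motile ciliated cells, Pearson's r was 0.89 for Folr1, 0.85 for Clic6 and 0.79 for Otx2, and 0.14 for Ttr. Spearman's rho with Foxj1 was 0.90 for Folr1, 0.88 for Clic6, 0.76 for Otx2 and 0.09 for Ttr. Adjusted over 50 such relations the permutation p was 8.33e-05 for r of each of the 3 genes and 0.486 for Ttr. Without the 2 libraries farthest from the median of Foxj1, r was 0.90 for Folr1, 0.84 for Clic6, 0.71 for Otx2 and 0.10 for Ttr. Over the 11 ependymal genes with a mean of at least 1 CPM, the median r was 0.84 with Folr1, 0.79 with Clic6, 0.74 with Otx2, 0.27 with Slc4a5 and Kcne2 and 0.09 with Ttr. The summed level of the 13 measured ependymal markers ranged from 43.5 to 980.8 CPM per library, and none was at 0 in every library of a group. Their part in the levels of Folr1, Clic6 and Otx2 was not tested.

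Otx2 and Clic6, and less strongly Folr1, also ran against the cortical markers. With Slc17a7, the vesicular glutamate transporter of cortical excitatory neurons, r was -0.59 for Otx2 and -0.50 for Clic6 (permutation p adjusted over the 50 relations, 8.33e-05 and 0.000625), and rho was -0.56 for Otx2 and -0.46 for Clic6. For Folr1 r was -0.37 (permutation p adjusted over the 50 relations, 0.02) and rho was -0.34. Without the 2 libraries farthest from the median of Slc17a7, r was -0.48 for Otx2, -0.40 for Clic6 and -0.28 for Folr1. The median r of Otx2 was -0.51 with 8 cortical excitatory genes and 0.54 with 9 septal and pallidal genes, against -0.09 and 0.12 for Ttr. With 12 spiny neuron genes and with 9 endothelial genes the median r was 0.07 or lower for all 10 members. For Ppp1r1b, the dopamine-regulated phosphatase inhibitor of spiny neurons, r with the members ran from -0.17 for Otx2 to 0.12 for Folr1.

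A pair of libraries shows how far the sets came apart. The library with the most Ttr, PAE-AAE P90 female replicate 3, had 3760 CPM of Ttr and 22.4 CPM of Slc4a5, and 2.19 CPM of Clic6, which is below the Clic6 median of 4.74 CPM over all libraries. PAE-VEH P42 female replicate 3 had 28.1 CPM of Ttr and 0.779 CPM of Slc4a5, and 10.5 CPM of Folr1, the highest Folr1 of its group. Among the 9 libraries above 1000 CPM of Ttr, Clic6 ranged from 0.581 to 32.4 per 1000 of Ttr, a 55.8-fold span, and Folr1 from 2.60 to 27.5, a 10.6-fold span. The span was 4.18-fold for Slc4a5, 4.85-fold for Kl and 5.19-fold for Kcne2, and 9.58-fold for F5. The low end of each of these spans was PAE-AAE P90 female replicate 3, so that the spans rest in part on that 1 library. The next lowest ratio was 6.84 for Clic6 and 5.57 for Folr1, both in PAE-VEH P42 male replicate 3. For F5 it was 5.65, in FCL-VEH P90 male replicate 3. In bulk tissue, more cells of a type and more RNA per cell cannot be told apart.

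Enpp2 stood apart by its high floor and by its relation to myelin genes. It lies on chromosome 7 at chr7:88092140-88214758 on the minus strand and ranged from 104.7 to 750.7 CPM, with the smallest spread of the 10 genes (0.60). It was thus above 100 CPM in every library, including the 7 with less than 20 CPM of Ttr. With Mbp, which encodes myelin basic protein, Enpp2 had r = 0.71 and rho = 0.72 (permutation p adjusted over the 50 relations, 8.33e-05 and 0.0001), and r = 0.60 without the 2 libraries farthest from the median of Mbp. The median r of Enpp2 with 11 myelin genes was 0.65, and the same median was at most 0.21 for the other 9 members. Enpp2 was most like Slc4a2 (r = 0.90), an anion exchanger that is also in the choroid list. That ranking covered genes with a mean of at least 1 CPM that are not members and carry a name rather than a locus number. The part of myelin in the level of Enpp2 was not tested.

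Aqp1, on chromosome 4 at chr4:85812784-85824964 on the plus strand, ranged from 0.155 to 14.9 CPM, with a lowest count of 11. With Igf2, a growth factor made by both choroid plexus and meninges, Aqp1 had r = 0.76 and rho = 0.62 (permutation p adjusted over the 50 relations, 8.33e-05 and 0.0001), and r = 0.70 without the 2 libraries farthest from the median of Igf2. The second highest Aqp1 was in PAE-VEH P42 male replicate 6, at 13.3 CPM, where Ttr was at 116.8 CPM and Igf2 at 349.4 CPM. That library had the highest sum of the 12 meningeal markers, 945.1 CPM against a median of 60.9 CPM in its group, and 1185 CPM of the cortical marker Slc17a7 against a group median of 17.9 CPM. It also had the lowest Otx2 of all, 0.818 CPM, the lowest Clic6, 0.532 CPM, and 3.38 CPM of Foxj1 against a group median of 34.5 CPM. The median r of Aqp1 with the meningeal genes was 0.30, and it was below 0 for the other 9 members. The part of the meningeal markers in the level of Aqp1 was not tested.

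**Figure D3:**
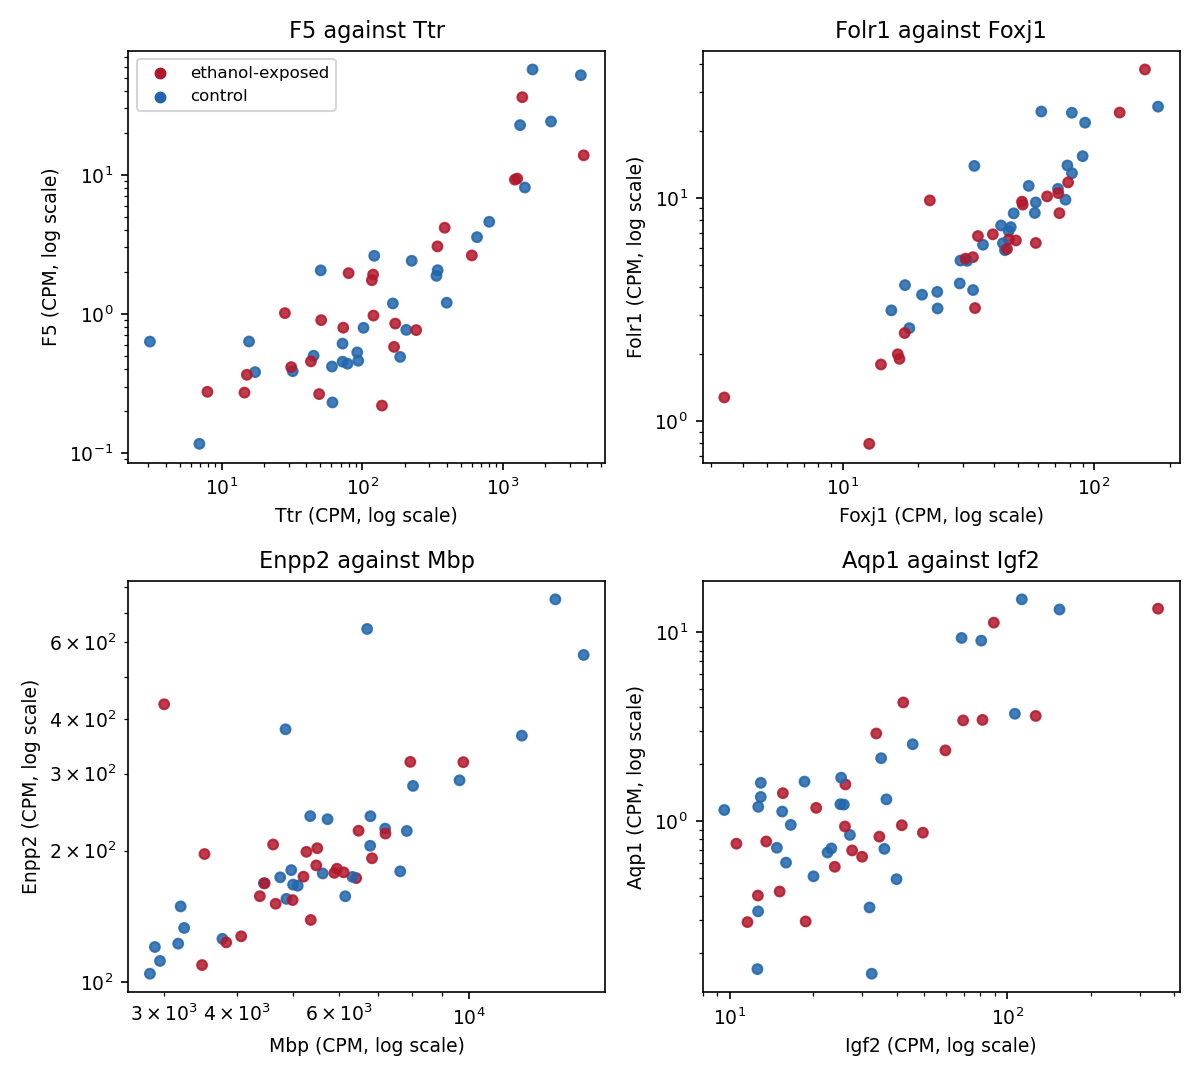
F5 against Ttr, Folr1 against Foxj1, Enpp2 against Mbp and Aqp1 against Igf2 in the 54 libraries, in CPM on log axes; red marks ethanol-exposed and blue control libraries. Pearson's r on the log2(CPM + 0.1) scale is 0.84, 0.89, 0.71 and 0.76 in the order of the panels.

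**Figure D4:**
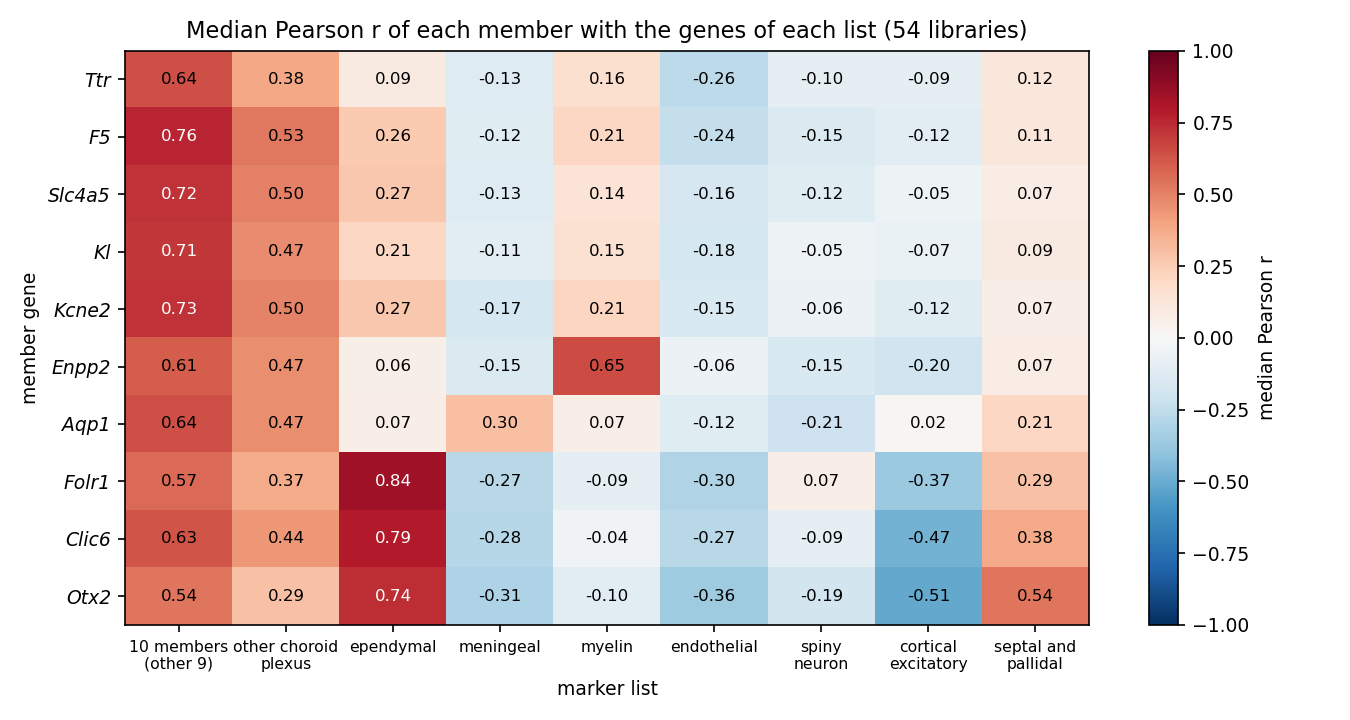
Median Pearson r over the 54 libraries between each member (rows) and the genes of each marker list with a mean of at least 1 CPM (columns). Folr1, Clic6 and Otx2 have their highest medians with ependymal genes (0.84, 0.79 and 0.74), Enpp2 has 0.65 with myelin genes, and the other 6 have their highest with the other members.

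The genes most like Ttr over the 54 libraries were, among those that are not members and carry a name, Mfrp (r = 0.90), Sostdc1 (0.85), Cldn2 (0.82), Mdk (0.80) and Crb3 (0.79), followed by Pbxip1 (0.70), Kcnj13 (0.68), Rbm47 (0.67), Synpo2l (0.66) and Slc16a8 (0.65). Sostdc1, a secreted antagonist of bone morphogenetic protein and Wnt signals, Kcnj13, an inward rectifier potassium channel, and Cldn2, a tight junction claudin, are also in the list of 26 further choroid plexus genes. Of 16333 other genes, 10 had r above 0.7 with Ttr and 92 had r above 0.5. Of the 19 further choroid plexus genes with a mean of at least 1 CPM, r with Ttr was above 0 for 16, with a median of 0.38. F5 had r = 0.94 with both Sostdc1 and Mfrp. Among the genes most like Clic6, a gene chosen for this after its relation to Foxj1 was seen, were Ccdc113 (r = 0.88), Msx1 (0.87) and Cfap126 (0.87), of which Ccdc113 and Cfap126 encode proteins of cilia.

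The exposure question is whether prenatal ethanol, alone or followed by adolescent alcohol, went with a different level of these genes. None of the 10 passed the threshold in any of the 4 exposure comparisons by edgeR's quasi-likelihood test, with Benjamini-Hochberg adjustment over all genes tested at 0.05. The share of all tested genes that passed was also 0% in each of the 4 comparisons and in both tests of the difference between the sexes. No member had an unadjusted p under 0.05 in the 4 comparisons, while 8.96% of all genes did in P42 males, 11.3% in P42 females, 8.74% in P90 males and 4.23% in P90 females. DESeq2 and a sample-weighted limma fit called none of the members either, and between 2 and 86 and between 1 and 36 of all genes. The intervals are wide: the standard error of the log2 change of Ttr was between 0.92 and 1.24.

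At P42, F5 averaged 2.26 ± 2.87 CPM in PAE-VEH males and 7.14 ± 18.8 CPM in FCL-VEH males (SD, n = 9 each), a log2 change of -1.68 (SE 1.02, adjusted p = 0.643 by edgeR), with 7 of 9 PAE-VEH libraries above the FCL-VEH median. Ttr averaged 270.2 ± 370 CPM in PAE-VEH males and 243.2 ± 522.7 CPM in FCL-VEH males, a log2 change of 0.13. In P42 females all 10 log2 changes were below 0, with a median of -0.93 against -0.03 over all genes, and the smallest adjusted p was 0.507. Their direction was not that of the medians for Ttr, F5 and Kcne2. The median of Ttr was 169.7 CPM in PAE-VEH females and 101.9 CPM in FCL-VEH females. That of F5 was 0.931 and 0.793 CPM, and that of Kcne2 was 2.54 and 2.18 CPM, in the same order. For each of these genes 3 of 4 PAE-VEH libraries were above the FCL-VEH median. For Folr1, 0 of 4 PAE-VEH female libraries were above the FCL-VEH median, and its log2 change was -1.01 (SE 0.62, adjusted p = 0.539). Several marker lists of other cell types had log2 changes mostly of 1 sign in the same P42 female comparison, none of them called. Log2 changes were below 0 for 12 of 13 ependymal genes (median -0.66), 11 of 11 myelin genes (median -0.31) and 9 of 9 septal and pallidal genes (median -0.51), and above 0 for 12 of 12 spiny neuron genes (median 0.49), 10 of these with an unadjusted p under 0.05. The ependymal genes summed to between 105.99 and 440.5 CPM in PAE-VEH females, and to between 297.6 and 648.1 CPM in FCL-VEH females. The spiny neuron genes summed to between 6964 and 9590 CPM in PAE-VEH females, and to between 4702 and 8164 CPM in FCL-VEH females. The part of these markers in the changes of the members was not tested. The difference of the exposure effects, female minus male, was below 0 for 9 of 10 members, with a smallest adjusted p of 0.588.

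At P90 the 2 sexes had log2 changes of opposite sign. In males all 10 were below 0, with a median of -0.71 against 0.01 over all genes, and in females all 10 were above 0, with a median of 0.48 against -0.02 over all genes. The male reference, FCL-VEH P90 males, had the highest median of Ttr of all groups (916.2 CPM). These libraries are also the P90 side of the male age comparison and the male side of the P90 sex comparison below. The signs of the members in those comparisons are therefore not independent of each other. Ttr averaged 260.8 ± 546.3 CPM in PAE-AAE males and 1333 ± 1371 CPM in FCL-VEH males (SD, n = 6 each), a log2 change of -2.33 (SE 1.22, adjusted p = 0.595 by edgeR). It averaged 1090 ± 1575 CPM in PAE-AAE females (n = 5) and 280.9 ± 282.9 CPM in FCL-VEH females (n = 8), a log2 change of 1.96 (SE 1.13, adjusted p = 0.9998 by edgeR). The difference, female minus male, was 4.29 for Ttr (SE 1.66, unadjusted p = 0.0161 and adjusted p = 0.423 by edgeR), and was above 0 for all 10 members, with 1 of 10 at an unadjusted p under 0.05, where 10.6% of all genes were. With 1 library left out, the change of Ttr ran from -5.13 (without PAE-AAE replicate 6) to -1.76 (without FCL-VEH replicate 6) in males. It ran from 0.58 (without PAE-AAE replicate 3) to 2.40 in females, and the difference from 2.94 (without that female library) to 7.09 (without PAE-AAE male replicate 6). In males, 1 of 6 PAE-AAE libraries was above the FCL-VEH median for Ttr, F5, Slc4a5, Kl, Kcne2, Enpp2, Folr1, Clic6 and Otx2, and that library was replicate 6. In the same male comparison 11 of 11 myelin genes were below 0 (median -0.49, 4 with an unadjusted p under 0.05), as were 11 of 13 ependymal genes (median -0.24), and 9 of 9 endothelial genes were above 0 (median 0.35). The myelin genes summed to between 7335 and 13691 CPM in PAE-AAE males, and to between 8347 and 32801 CPM in FCL-VEH males. In the female comparison 9 of 11 myelin genes (median 0.02), 6 of 13 ependymal genes and 12 of 12 spiny neuron genes (median 0.28) were above 0. The part of these markers in the changes of the members was not tested.

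**Figure D5:**
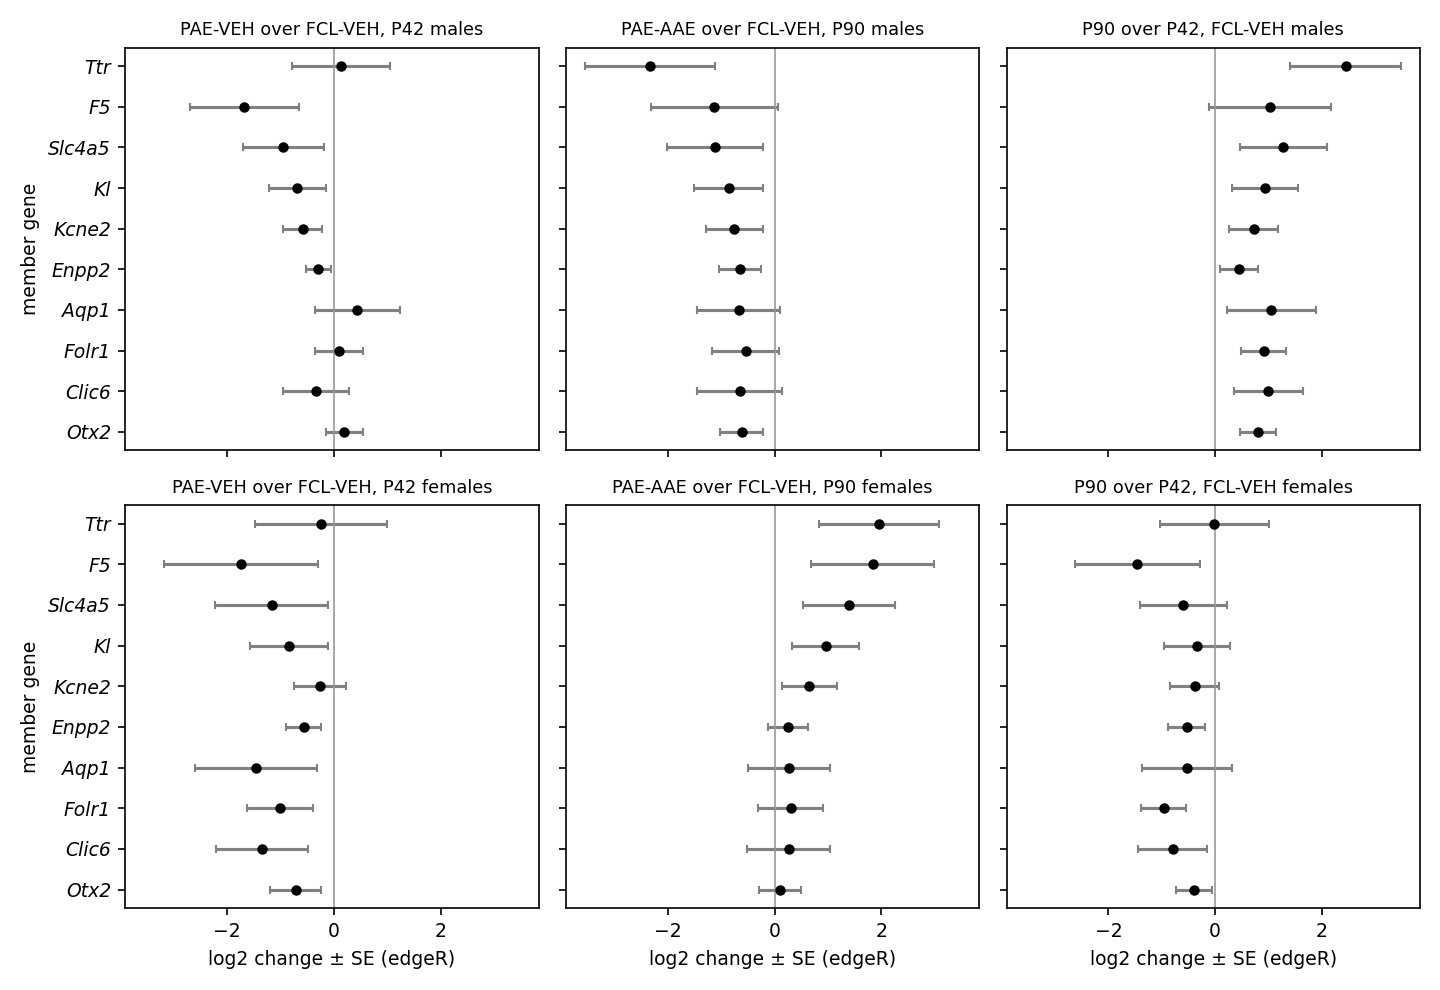
Log2 change of each of the 10 genes with its standard error, from edgeR, for exposed over control libraries at P42 (left) and P90 (middle) and for P90 over P42 in controls (right), males above and females below. No change passed the adjusted threshold, and at P90 the exposure changes lie below 0 in males and above 0 in females.

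A test on the log2(CPM + 0.1) values of Ttr, which weights low and high libraries alike, gave other sizes. In P90 males the mean of PAE-AAE libraries was lower than that of FCL-VEH libraries by a log2 difference of -3.39 (exact two-sided permutation p = 0.0433, and 0.130 after Benjamini-Hochberg adjustment over 6 comparisons). In P42 males the difference was 1.42 (exact permutation p = 0.177), in P42 females 0.59 (exact permutation p = 0.642) and in P90 females 0.40 (exact permutation p = 0.782). Without FCL-VEH P90 male replicate 2, the control library with the lowest Ttr of its group, the difference in P90 males was -4.24 with an adjusted exact permutation p of 0.0390. Leaving out the lowest control library widens this difference by construction, so that this p is given as a description. Of the 12 such tests with 1 library left out, the 11 others were classed as the same as the main result. Without the 5 libraries with discordant or mixed sex markers it was -2.83 with an adjusted p of 0.357. In P42 females this difference was above 0, while the edgeR change was -0.24.

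The age question, P90 against P42 within the controls, gave calls of members by edgeR when 1 control library was left out, and none with all libraries. The time since the last exposure is not given at P90, so its part in the age changes was not tested. With all libraries 0 of 10 members were called in males, where 2.53% of all 24065 genes tested were called, 1.93% higher and 0.603% lower at P90. In females 0 of 10 were called, where 0.42% of all genes were, 0.224% higher and 0.195% lower at P90. At an unadjusted p under 0.05 there were 3 of 10 members in males, against 17.6% of all genes, and 1 of 10 in females, against 15.3%, and DESeq2 and the sample-weighted limma fit called 0 members in both. Ttr averaged 1333 ± 1371 CPM in P90 males (n = 6) and 243.2 ± 522.7 CPM in P42 males (n = 9), a log2 change of 2.44 (SE 1.04, adjusted p = 0.214 by edgeR), with 5 of 6 P90 libraries above the P42 median. In females it averaged 280.9 ± 282.9 CPM at P90 (n = 8) and 283 ± 473 CPM at P42 (n = 7), a log2 change of -0.02. In males all 10 members had log2 changes above 0, with a median of 0.96, and in females all 10 were below 0, with a median of -0.53. The P90 males here are the FCL-VEH libraries that also serve as the reference of the male exposure comparison. The medians over all genes were -0.001 and -0.002. The difference of the age changes, female minus male, was below 0 for all 10, with a smallest p of 0.00400 for Folr1 (log2 difference -1.87, SE 0.60, adjusted p = 0.470 by edgeR), where 0% of all genes were called. In the female age comparison 11 of 13 ependymal genes (median -0.80) and 11 of 11 myelin genes (median -0.57) were also below 0, and 12 of 12 meningeal genes (median 0.53) and 8 of 8 cortical excitatory genes (median 1.06) were above 0, and their part was not tested.

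FCL-VEH P42 male replicate 5, with 1626 CPM of Ttr, was the highest library of its group in Ttr and in the 9 other members. Leaving it out therefore lowers the P42 mean of every member. Without it, 6 of 10 members were called higher at P90 in males, namely Ttr, F5, Slc4a5, Kl, Aqp1 and Folr1. Of all genes, 1.6% were called higher in that fit. The members vary together, so the 6 calls are not independent of each other, and the 2 shares are given as a description. The log2 change was then 4.24 for Ttr (SE 0.99, adjusted p = 0.0215 by edgeR), 4.05 for F5 (adjusted p = 0.0319) and 3.23 for Slc4a5 (adjusted p = 0.00803). Slc4a5 averaged 14.3 ± 15.3 CPM in P90 males (n = 6) and 1.52 ± 0.34 CPM in the other 8 P42 males, with 6 of 6 P90 libraries above the P42 median. Folr1 was called at adjusted p = 0.0498 by edgeR, close to the threshold. Clic6, Otx2 and Kcne2 had adjusted p = 0.0506, 0.0507 and 0.0602, and Enpp2 had 0.211. The library left out was the only one whose absence gave a call of any member among the 84 fits with 1 library left out. Without the 5 libraries with discordant or mixed sex markers, among them FCL-VEH P90 male replicate 6 with 3588 CPM of Ttr, the change of Ttr was 1.74 (adjusted p = 0.607) and that of F5 was -0.15. The exact permutation test of Ttr gave a log2 difference of 3.37 in males (exact permutation p = 0.0300, adjusted 0.130), and 4.22 (adjusted exact permutation p = 0.0360) without FCL-VEH P90 male replicate 2. That library has the lowest Ttr of the P90 control males, so leaving it out widens the difference by construction. Of the 15 such tests with 1 library left out, the 14 others were classed as the same as the main result. The 13 ependymal markers summed to 122.97, 280.9 and 961.1 CPM (lowest, median and highest) in P90 males, against 128.2, 223.5 and 500.2 CPM in P42 males, and their part in these changes was not tested.

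Between control females and males, 0 of 10 members were called at P42, where 0% of all genes were. The P42 groups include FCL-VEH male replicate 8 and FCL-VEH female replicate 5, whose sex markers went against their labels. Without the libraries against their sex label, 13 genes were called at P42, 6 higher and 7 lower in females. At P90 0 of 10 members were called, where 0.0499% of all genes were, 0.0166% higher and 0.0332% lower in females. At P90 all 10 log2 changes, female over male, were below 0, with a median of -1.60 against 0.01 over all genes, and 8 of 10 had an unadjusted p under 0.05, against 5.85% of all genes. At P42, 0 of 10 had, against 6.08% of all genes. The members vary together over libraries, so the 8 at P90 are not independent of each other. The same FCL-VEH P90 males enter the male exposure and male age comparisons, so the patterns of sign in these comparisons are not independent either. FCL-VEH P90 male replicate 6, which carried Xist at 53.3 CPM, held 59.2% of the summed F5 CPM of its group and 44.9% of its Ttr. DESeq2 and the sample-weighted limma fit called 0 members at either age. F5 averaged 1.52 ± 1.62 CPM in P90 control females (n = 8) and 14.7 ± 20.4 CPM in P90 control males (n = 6), a log2 change of -3.25 (SE 1.25, adjusted p = 0.818 by edgeR), with 0 of 8 female libraries above the male median. Enpp2 had the smallest p (log2 change -1.06, SE 0.36, unadjusted p = 0.00681, adjusted p = 0.818 by edgeR). For the myelin genes 11 of 11 log2 changes were also below 0 (median -0.57), 9 of them with an unadjusted p under 0.05, and 12 of 13 ependymal genes were below 0 (median -0.54, 0 with an unadjusted p under 0.05). The myelin genes summed to between 6867 and 19816 CPM in P90 control females, and to between 8347 and 32801 CPM in P90 control males. The ependymal genes summed to between 89.2 and 565.8 CPM in these females, and to between 122.97 and 961.1 CPM in these males. In no list was a gene at 0 in every library of a group, and the part of these markers in the changes of the members was not tested.

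The 26 further choroid plexus genes gave 1 call over the 11 comparisons, by edgeR. Krt18, an epithelial keratin, averaged 6.51 ± 4.20 CPM in P90 control males (n = 6) and 2.67 ± 1.29 CPM in P42 control males (n = 9), a log2 change of 1.29 (SE 0.35, adjusted p = 0.0425), with 6 of 6 P90 libraries above the P42 median. In that comparison 2.53% of all genes were called, 1.93% higher at P90. The call of Krt18 was lost under 5 of 7 alternatives, with adjusted p up to 0.205, and in 10 of 30 fits with 1 library left out. In the same comparison 24 of the 26 had log2 changes above 0, with a median of 0.73, against 12 of 13 ependymal genes with a median of 0.54. By r, Krt18 was among the 10 genes most like Clic6 (0.86). In P90 males 23 of the 26 were below 0 in PAE-AAE over FCL-VEH libraries, and in P90 females 21 of 26 were above 0. The smallest p there were those of Wfdc2 in males (log2 change 0.37, unadjusted p = 0.0237, adjusted p = 0.552), a whey acidic protein family member, and of the organic anion transporter Slco1a5 in females (log2 change 3.14, unadjusted p = 0.0228, adjusted p = 0.9998), at under 1 CPM in both groups. At P42 the smallest were those of Slc13a4, a sulfate transporter, in males (log2 change 1.59, adjusted p = 0.470) and of Wfdc2 in females (log2 change 0.26, adjusted p = 0.372). With 1 library left out, the change of Slc13a4 in P42 males ran from 0.16 to 2.01.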

How the data were processed

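Bulk RNA-seq libraries of rat nucleus accumbens were prepared without strand information from random-primed cDNA, per the labels' protocols. The deposited table gives read counts per gene and FPKM made by the authors for 54 libraries, with gene coordinates that match GRCr8 for all 10 members. The submitters' processing notes name fastp and HISAT2 2.0.5, and the counting tool is not given in the sources used here. FPKM, the count scaled by the deposited gene length and by library size, was used only to compare levels between genes. The 720 rows with no gene name, which held 0.271% to 0.412% of the counts per library, were left out, leaving 45785 of 46505 rows. Slc4a5 and F5 each overlap 1 gene on the other strand, with mean counts of 1.26 and 0.315.

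Counts were tested with edgeR 4.0.16 (quasi-likelihood F test, TMM, filterByExpr by group) in R 4.3.3 and adjusted by Benjamini-Hochberg over all genes tested, at 0.05. Each fit held all libraries of 1 age (29 at P42, 25 at P90) or all 30 controls. DESeq2 1.42.0 and limma 3.58.1 (voom with sample weights) served as alternatives. Correlations used log2(CPM + 0.1) and 100000 permutations. Ttr was also tested with exact permutation tests (scipy 1.17.1). Counts were simulated for PAE-VEH against FCL-VEH males at P42, with the same dispersion for every gene and changes only in genes above a floor of mean counts. The edgeR test recovered 74 of 100 genes changed 2-fold and 100 of 100 changed 4-fold over 23545 genes, with 5 false calls. Ttr and F5 had within-group spreads of 2.26 and 2.02, against a median of 0.22 over genes with a mean of at least 1 CPM. These shares therefore do not tell which changes of the members would be found. All 10 members are described. Of the 26 further choroid plexus genes, up to 4 called genes with the largest change per comparison, or up to 2 with the smallest p, could be named; the genes named as most like Ttr are the 10 with the highest r. The members and lists were chosen with earlier results of these data known. Promoter windows came from RefSeq on GRCr8.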

Additional observations from a re-analysis of the deposited data

Results flagged for a closer look

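Of 80 pairs of a member and a group, 16 had a highest or lowest library that stood apart from the rest of its group by Dixon's criterion at 95%; chance gives about 1 in 20. In FCL-VEH P42 males, replicate 5 stood apart at the high end for Kl (52.4 CPM), Kcne2 (12.4 CPM), Enpp2 (642.3 CPM), Slc4a5 (40.5 CPM), Aqp1 (14.9 CPM) and F5 (57.2 CPM). In PAE-AAE P90 males, replicate 6 stood apart at the high end for Ttr (1375 CPM), Kl (42.1 CPM), Kcne2 (10.8 CPM), Slc4a5 (32.0 CPM) and Otx2 (16.3 CPM). In FCL-VEH P42 females, replicate 7 stood apart at the high end for Kl (30.1 CPM), Kcne2 (7.94 CPM), Aqp1 (9.33 CPM) and Clic6 (26.0 CPM). In PAE-VEH P42 males, replicate 6 stood apart at the low end for Otx2 (0.818 CPM). The flags of 1 library are not independent of each other, since the members vary together.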

How the results depend on the processing

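The count of members called stayed at 0 in each of the 11 comparisons under RLE size factors, no filter on low counts, DESeq2, sample-weighted voom, all 54 libraries in 1 fit, and without the libraries with discordant sex markers. With 1 library left out it ranged from 0 to 6 for P90 over P42 in control males, where the 6 calls came without FCL-VEH P42 male replicate 5, and stayed at 0 elsewhere.

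Log2 changes that turned sign were those of Ttr by voom in P42 females (0.47) and for age in females (0.35), of F5 in P42 males by DESeq2 (1.31) and by voom (0.24) and in P42 females by DESeq2 (0.21), and of Clic6 in P42 males by voom (0.25). Without the 5 libraries with discordant or mixed sex markers, an alternative chosen after seeing the data, F5 (0.13) and Clic6 (0.028) turned in P90 males and F5 for age in males (-0.15). The cause was not tested. With 1 library left out, the change of Ttr ran from -0.68 to 1.94 in P42 males, -1.20 to 1.13 in P42 females, -2.16 to 0.998 for their difference, -0.46 to 1.37 for age in females and -1.16 to 2.02 for female over male at P42. That of F5 ran from -4.46 (without PAE-AAE replicate 6) to -0.13 (without FCL-VEH replicate 6) in P90 males, -2.36 to 1.35 in P42 males, -2.35 to 0.21 in P42 females and -1.95 to 0.50 for age in females. That of Clic6 ran from -0.67 to 0.68 in P42 males and -0.13 to 0.59 in P90 females. The log2 difference of Ttr in the exact permutation tests ran from -0.084 to 1.39 in P42 females, -0.58 to 1.64 in P90 females, -4.30 to -2.88 in P90 males and 2.84 to 4.22 for age in males.

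Counts over all genes moved by more than 1.5 times. For age in males, 610 genes were called, against 1166 by DESeq2, 938 in the fit of 54 libraries, 402 by voom, 360 with no filter, 322 without the 3 libraries against their sex label and 69 without the 5. For age in females, 54 were called higher and 47 lower, against 349, 178, 249, 60, 43 and 47 in either direction and in that order. Exposure in P42 females gave 0, against 86 by DESeq2 and 36 by voom, and in P42 males 0, against 24 and 1. Control females over males at P42 gave 0, against 7 by DESeq2, 7 by voom and 13 without the 3 libraries against their sex label. No paired analysis was possible because the replicate numbers only follow accession order. With a pseudocount of 1 CPM the within-group spread of F5 was 1.48 in place of 2.02 and that of Aqp1 0.996 in place of 1.46. Members with low counts, F5 and Aqp1 at 9 and 11 counts at the lowest, are limited by depth there.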
